A study of Mus musculus with 16 samples.

Results

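The miR-193 and miR-365 microRNAs come from a pair of small gene clusters, and their 7 mature products were followed in C2C12 muscle cells: miR-193a-5p, miR-193a-3p, miR-193b-5p, miR-193b-3p, miR-365-1-5p, miR-365-2-5p and miR-365-3p. The members were the rows listed under these names, with or without a hairpin copy number and after removal of the mismatch note, and they make up 7 of 2274 miRNA names in all. Rows named miR-193-3p (276.5 reads) and miR-193-5p (1486 reads) were added to miR-193a-3p and miR-193a-5p as length and sequence variants of the Mir193a arms. With them, 83.1% of the miR-193a-3p reads and 93.9% of the miR-193a-5p reads matched the Mir193a hairpin without a mismatch. With these names kept apart, 2 members were called in each differentiation comparison as before, against 27.97% of all names in control and 19.8% in tKO, and miR-193a-5p alone had log2 changes of -1.81 (adjusted p 0.00577 by edgeR) in control and -1.27 (0.0483) in tKO from GM to DM3, the media described next. After a filter on low counts, 6 members could be tested. The member left out was miR-193b-5p, which had 84 reads over the 16 libraries.

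Small RNA libraries were made from C2C12 cells, a mouse myoblast line that forms myotubes when serum is withdrawn. All lines were cells that the labels call C2C12 PAX7 NEG. The controls were 2 populations labelled wild-type, and the triple knockouts (tKO) were 2 clones labelled as knocked out for miR-206 and for both copies of miR-1a (miR-1a-1, miR-1a-2), so that each tKO line stands for 1 clone. Each line was taken in growth medium with 20% FBS (GM) and after 3 days in medium with 2% horse serum (DM3), with 2 biological replicates, which gave 4 groups of 4 libraries. The 4 libraries of a group are therefore 2 lines with 2 replicates each, not 4 independent lines.

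The libraries held 112792 to 6543570 reads, so that 3 counts of a library's total, the smallest amount taken as detectable, stood for a CPM value, the read count scaled to a common library total, of 0.458 to 26.6. The smallest library was tKO DM3, line 1, replicate 1. Reads shorter than 18 nt made up 1.88% to 6.50% of the GM libraries and 2.96% to 18.9% of the DM3 libraries. Reads listed as miR-6240 or miR-6236 made up 0.555% to 5.41% in GM and 1.60% to 35.4% in DM3. The highest values in both measures were those of tKO DM3, line 1, replicate 1, followed by control DM3, line 1, replicate 2 with 12.8% and 17.1%. These are the only libraries with over 10% of reads under 18 nt, and the member comparisons of DM3 with GM in level, strand, start, end and tail that are described below are also given without them, while shares and lists are not. The deleted miR-206-3p stood at 837 to 1466 CPM in control GM and 19950 to 57440 CPM in control DM3, against 0.808 to 15.5 CPM in tKO GM and 0.960 to 70.9 CPM in tKO DM3. The myotube markers miR-206-3p, miR-1a-3p, miR-133a-3p and miR-133b-3p together stood at 849 to 1490 CPM in control GM and at 23020 to 59600 CPM in control DM3. In tKO, where 2 of these 4 markers are deleted, they summed to 7.27 to 20.5 CPM in GM and 98.9 to 973 CPM in DM3. Markers of liver, neurons, blood, endothelium and epithelium, 10 in all, each had at least 1 read in every group. Their summed level in GM was 37.1 to 69.0 CPM for control and 45.5 to 158 for tKO, in DM3 20.2 to 33.5 for control and 19 to 65.4 for tKO, and its part in the results was not tested.

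A microRNA gene is transcribed as a hairpin, which is cut into a 5p and a 3p strand. Usually a single strand is kept in the silencing complex and the other is lost, and bases 2 to 8 of the kept strand, the seed, pair with target mRNAs. The Mir193b and Mir365-1 cluster is known from work on brown fat, where cell culture studies described it as favouring brown fat over muscle differentiation, while mice without it still form brown fat. The miR-193 3p strands are also known as growth-restraining microRNAs in several tumours.

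The sequences show which members share a seed and which reads can be told apart. Mature sequences are printed 5′ to 3′ with the seed in capitals, as RefSeq gives them on GRCm38.p6, where all 7 members were found.
miR-193a-3p: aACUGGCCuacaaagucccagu
miR-193b-3p: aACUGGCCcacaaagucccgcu
miR-365-3p: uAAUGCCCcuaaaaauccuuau
miR-365-1-5p: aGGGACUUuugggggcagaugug
miR-365-2-5p: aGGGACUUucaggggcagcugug
miR-193a-5p: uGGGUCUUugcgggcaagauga
miR-193b-5p: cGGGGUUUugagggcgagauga

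The 3p strands of miR-193a and miR-193b share the seed ACUGGCC and differ at 3 of 22 positions, counted from the 5′ end of miR-193a-3p, by U9C, A20G and G21C. The 5p strands of the 2 miR-365 hairpins share the seed GGGACUU and differ at 3 of 23 positions, by U10C, G11A and A19C from miR-365-1-5p to miR-365-2-5p. The miR-193 5p strands do not share a seed: they differ at 5 of 22 positions, 2 of them in the seed, by U1C, U5G, C6U, C11A and A16G from miR-193a-5p to miR-193b-5p.

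The 4 hairpins are shown because the origin of a read depends on them, with the mature strands in capitals.
Mir193b: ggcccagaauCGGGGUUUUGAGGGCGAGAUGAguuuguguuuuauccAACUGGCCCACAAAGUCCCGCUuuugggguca
Mir365-1: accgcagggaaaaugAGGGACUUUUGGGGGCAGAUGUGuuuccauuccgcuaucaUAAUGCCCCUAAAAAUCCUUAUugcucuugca
Mir193a: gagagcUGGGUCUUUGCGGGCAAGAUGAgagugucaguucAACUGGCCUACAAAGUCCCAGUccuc
Mir365-2: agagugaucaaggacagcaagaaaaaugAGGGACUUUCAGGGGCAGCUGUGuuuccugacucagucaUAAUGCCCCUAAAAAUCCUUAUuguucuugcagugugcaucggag

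Mir193b (chr16:13449523-13449601) and Mir365-1 (chr16:13453840-13453926) lie on the plus strand of chromosome 16, 4238 bases apart. In GENCODE M21 on GRCm38 both lie within the minus-strand antisense gene Gm15738, outside its exons. Mir193a (chr11:79711969-79712034) and Mir365-2 (chr11:79726400-79726511) lie on the plus strand of chromosome 11, 14365 bases apart, and overlap no annotated gene but their own. Mature miR-365-3p is the same from both loci. The hairpins share a run of 27 nt around it, with 3 bases before and 2 after the mature strand, shown with the mature strand in capitals.
shared run of Mir365-1 and Mir365-2: ucaUAAUGCCCCUAAAAAUCCUUAUug

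Of 42643.5 miR-365-3p reads without a mismatch, 99.97% matched both hairpins, 1 read matched only Mir365-1 and 13.5 matched only Mir365-2. The listing of most of them under copy 1 therefore does not assign them to chromosome 16. The 5p strands differ, so only they report the 2 loci separately.

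The cluster was dominated by miR-365-3p, which took 82.1% of all member reads summed over the 16 libraries and ranked 91st of all names by its mean share. The next was miR-365-2-5p with 7.52%, then miR-193a-5p with 4.51% and miR-193b-3p with 4.396%. The remaining members, miR-365-1-5p (403 reads), miR-193a-3p (346.5 reads) and miR-193b-5p (84 reads), were each below 1%. Levels are given as CPM scaled by the trimmed mean of M values (TMM), which sets libraries to a common scale across most miRNAs.

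After 3 days of differentiation, the 5p strands of the chromosome 11 cluster fell. The abundant miR-365-3p, the miR-193 3p strands and the chromosome 16 strand miR-365-1-5p did not pass the test. In control cells miR-365-2-5p fell 3.98-fold and miR-193a-5p 3.40-fold, and in tKO cells they fell 3.21-fold and 2.47-fold. No member was called between tKO and control in either medium. The edgeR quasi-likelihood test across all names, adjusted by Benjamini-Hochberg, called 2 of the 6 tested members in control and the same 2 in tKO, against 27.6% of 807 names in control and 19.7% in tKO.

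The level of miR-365-2-5p in control GM was 173, 127, 135 and 151 TMM-scaled CPM, with line 1 replicates 1 and 2 before those of line 2. In tKO GM, in the same order, it was 137, 259, 143 and 152. In control DM3 it was 31.3, 32.7, 41.5 and 40.5, and in tKO DM3 it was 40.1, 57.1, 58.9 and 55.1. Every DM3 library lay below every GM library, and tKO GM line 1 replicate 2 stood above the other 15. In control the mean went from 146 ± 20.2 (SD, n = 4) to 36.5 ± 5.26, a log2 fold change of -1.99 (SE 0.34, adjusted p 0.000247 by edgeR). In tKO it went from 173 ± 58.0 to 52.8 ± 8.60, a log2 fold change of -1.68 (SE 0.33, adjusted p 0.00171 by edgeR). These are bulk samples, in which fewer cells of a type and less RNA per cell cannot be told apart.

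The level of miR-193a-5p, the other 5p strand of chromosome 11, was 65.8, 77.3, 96.7 and 85.9 in control GM and 80.4, 100.4, 83.1 and 103 in tKO GM. It was 8.54, 23.1, 27.7 and 33.1 in control DM3 and 20.1, 42.9, 39.7 and 39.4 in tKO DM3. The GM and DM3 libraries did not overlap, and line 1 replicate 1 was the lowest in both DM3 groups, from 3 reads in each. The log2 fold change was -1.76 (SE 0.38, adjusted p 0.00182 by edgeR) in control and -1.31 (SE 0.37, adjusted p 0.0182 by edgeR) in tKO. Without the 2 libraries rich in short reads, the log2 fold changes of miR-365-2-5p were -2.01 in control and -1.53 in tKO, and those of miR-193a-5p -1.80 and -1.12, all with an adjusted p under 0.05. The tKO call of miR-193a-5p was lost when tKO GM line 2 replicate 1 (adjusted p 0.0536) or replicate 2 (0.0682) was left out. It was also lost with the replicates of a line summed (0.0782), with no filter (0.103), with only the groups compared (0.0552) and with replicate number 1 (0.161) or 2 (0.115) alone. In the settings that lost the call the log2 value stayed about as large, from -1.39 to -1.25, against -1.31 as reported.

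**Figure D1:**
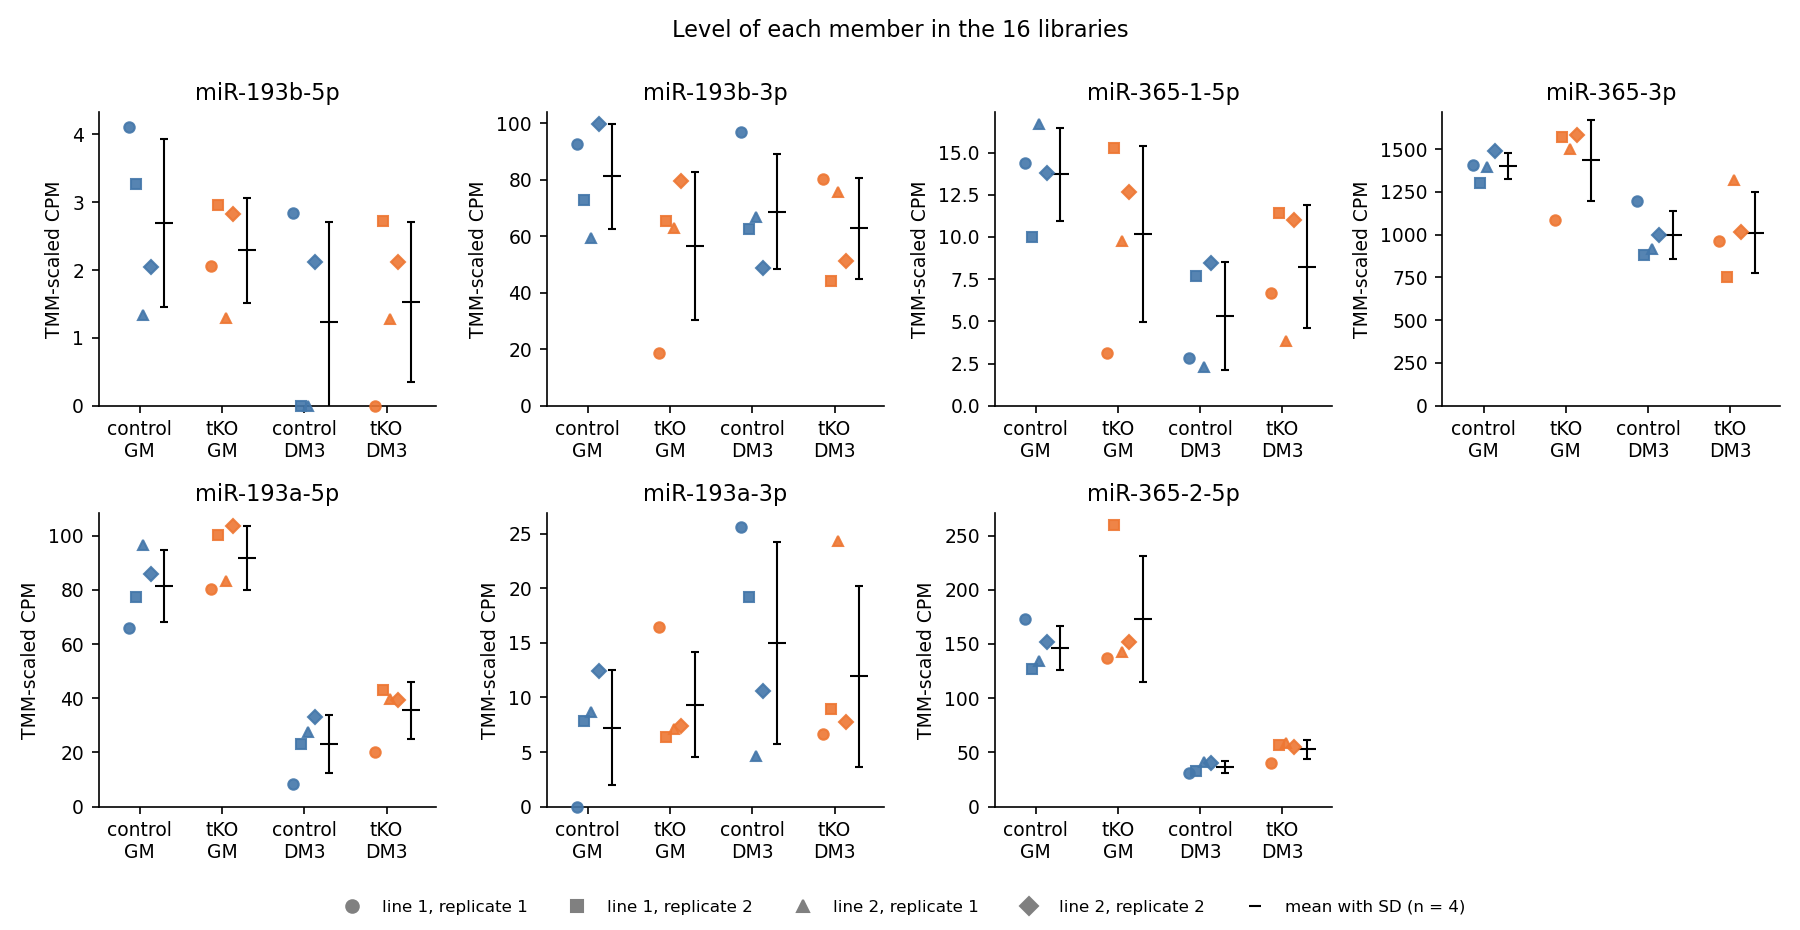
Level of each of the 7 members in TMM-scaled CPM in the 16 libraries, with a mean and SD bar per group (n = 4), blue for control and orange for tKO. The DM3 libraries of miR-193a-5p and miR-365-2-5p lie below all GM libraries, while the groups of miR-193b-3p and miR-193a-3p overlap.

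The guide strand miR-365-3p stood at 1408, 1304, 1396 and 1489 TMM-scaled CPM in control GM and at 1084, 1570, 1498 and 1584 in tKO GM. It stood at 1198, 879, 916 and 998 in control DM3 and at 962, 750, 1320 and 1017 in tKO DM3. The control groups did not overlap, and the tKO groups did. By group mean, the order was tKO GM (1434 ± 236, SD, n = 4), control GM (1399 ± 75.9), tKO DM3 (1013 ± 235) and control DM3 (998 ± 142), of which the 2 GM groups and the 2 DM3 groups were compared and did not pass the test, while tKO DM3 against control GM was not tested. The log2 fold change from GM to DM3 was -0.49 (SE 0.26, adjusted p 0.177 by edgeR) in control and -0.50 (SE 0.26, adjusted p 0.198 by edgeR) in tKO. On the scale of total reads, which moved the median of all names by 0.37 in control and 0.23 in tKO, the log2 changes of miR-365-3p were -0.06 and -0.27. On that scale 71.2% of the calls in control were higher in DM3, against 57.4% on the TMM scale, and 71.9% against 57.9% in tKO.

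The seed partners miR-193b-3p and miR-193a-3p, one from each chromosome, did not pass the test in any comparison. In GM the miR-193b-3p level ranged from 59.3 to 99.9 TMM-scaled CPM in control and from 18.6 to 79.4 in tKO. In DM3 these ranges were 48.6 to 96.8 and 44.03 to 80.2. Its log2 fold change with differentiation was -0.26 (SE 0.42) in control and 0.10 (SE 0.42) in tKO, with adjusted p of 0.697 and 0.909 by edgeR, and its sign turned under total-read scaling in control, to 0.19. The miR-193a-3p level was lower, between 0 and 12.5 in control GM, 6.35 and 16.5 in tKO GM, 4.62 and 25.6 in control DM3 and 6.68 and 24.3 in tKO DM3. The lowest DM3 values, under 3 counts, came from 2 reads in control line 2 replicate 1 and 1 read in tKO line 1 replicate 1. This strand had no read in control GM line 1 replicate 1, where 3 counts stand for 5.86 CPM. Its log2 fold change was 0.84 (SE 0.61, adjusted p 0.333 by edgeR) in control, or 0.51 without that library, and 0.43 (SE 0.61, adjusted p 0.678 by edgeR) in tKO. Of its reads, 19.3% were shorter than 18 nt, more than for any other member, and its leading sequence was an 18-nt form with 103 reads, against 70 reads of the full 22-nt strand.
leading miR-193a-3p read: aacuggccuacaaagucc

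The chromosome 16 passenger miR-365-1-5p had 1 to 74 reads per library. Its mean was 13.7 ± 2.77 TMM-scaled CPM in control GM, 10.2 ± 5.23 in tKO GM, 5.33 ± 3.20 in control DM3 and 8.24 ± 3.63 in tKO DM3 (SD, n = 4). In control its GM libraries, at 9.99 to 16.7, all lay above its DM3 libraries, at 2.31 to 8.45. The log2 fold change with differentiation was -1.11 (SE 0.51, unadjusted p 0.042 and adjusted p 0.112 by edgeR) in control and -0.22 (SE 0.48, adjusted p 0.810 by edgeR) in tKO. Without the 2 libraries rich in short reads, control and tKO stood at -1.25 and -0.12 for miR-365-1-5p, -0.52 and -0.41 for miR-365-3p, -0.31 and 0.0528 for miR-193b-3p, and 0.53 and 0.54 for miR-193a-3p, none of them called. The share of miR-365-1-5p among reads of both miR-365 5p strands was 8.58% ± 1.68 in control GM and 12.5% ± 6.72 in control DM3, and 5.46% ± 2.34 in tKO GM and 13.4% ± 5.003 in tKO DM3. The control difference of 3.895 points was 1.705 without control DM3 line 1 replicate 2 and 6.3 without control DM3 line 2 replicate 1. Over 12 exact permutation tests of such shares, none passed at an adjusted p under 0.05, and with 70 assignments the smallest p is 0.0286. A comparison that reaches this p alone cannot pass the adjustment, so these tests cannot show that the shares were unchanged. The share of miR-365-3p among miR-365-3p and miR-193b-3p reads, 96.4% ± 1.34 in tKO GM and 94.1% ± 1.26 in tKO DM3, was the comparison with that smallest two-sided exact p of 0.0286 and an adjusted p of 0.257. Its GM and DM3 libraries did not overlap.

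**Figure D2:**
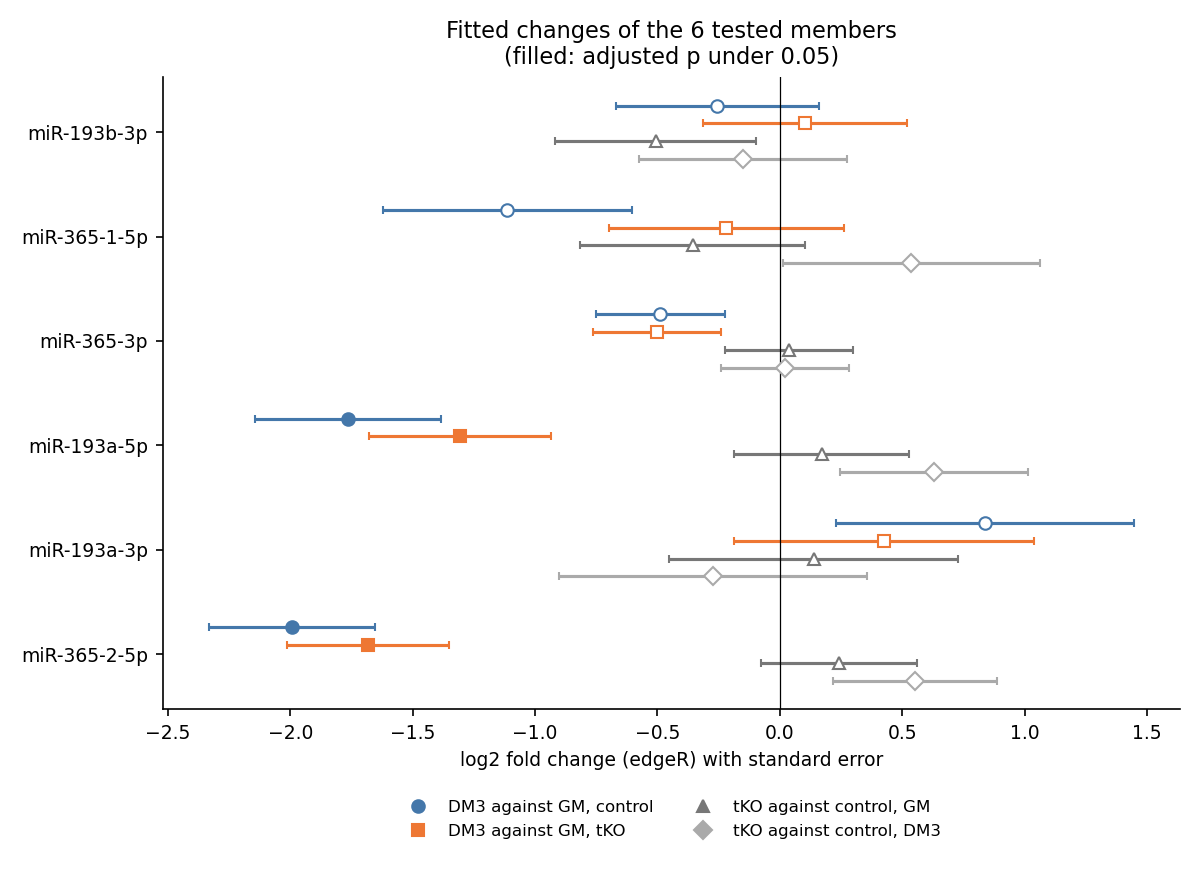
Fitted log2 fold changes of the 6 tested members with standard errors in the 4 comparisons; filled points passed an adjusted p under 0.05. The filled points are those of miR-193a-5p and miR-365-2-5p in both differentiation comparisons, and no comparison of tKO with control has one.

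The comparison of tKO with control asks how the loss of miR-206 and miR-1 bears on these members, and no tested member passed it. By edgeR, 0 of 6 members were called in GM, where 1.12% of names were called, and 0 of 6 in DM3, where 0.867% were called. None of the members had an unadjusted p under 0.05. The DESeq2 Wald test also called 0 members, against 2.48% of names in GM and 2.35% in DM3. Without tKO DM3 line 1 replicate 1 the share of all names called was 6.16% in DM3 (53 of 860) and 1.86% in GM (16 of 860). Without both libraries rich in short reads it was 1.09% in DM3 (9 of 829) and 2.17% in GM (18 of 829), and 0 members were called in any of these fits. In GM the log2 difference of tKO from control was 0.04 (SE 0.26) for miR-365-3p, 0.24 (SE 0.32) for miR-365-2-5p, 0.17 (SE 0.36) for miR-193a-5p and -0.51 (SE 0.41) for miR-193b-3p, which was -0.21 without tKO GM line 1 replicate 1. In DM3 it was 0.02 (SE 0.26) for miR-365-3p, 0.55 (SE 0.34) for miR-365-2-5p, 0.63 (SE 0.38) for miR-193a-5p and -0.15 (SE 0.42) for miR-193b-3p. The GM difference of miR-193a-5p was 0.0627 without control GM line 1 replicate 1 and 0.33 without control GM line 2 replicate 1. Its DM3 difference was 0.46 without control DM3 line 1 replicate 1 and 0.97 without control DM3 line 2 replicate 2. The test of whether differentiation acted differently in tKO also called 0 members by edgeR, none at an unadjusted p under 0.05, with 0% of names called, 37 of 807 at an unadjusted p under 0.05 and 0 names by DESeq2. In tKO GM, line 1 replicate 1 had low values of 2 of the 3 members specific to chromosome 16, 18 reads of miR-193b-3p (18.6 TMM-scaled CPM, against 63.0 to 79.4 in the other 3) and 3 reads of miR-365-1-5p (3.09 against 9.74 to 15.3). The other, miR-193b-5p, had 2 reads there (2.06, against 1.30 to 2.97 in the other 3). Its miR-193a-3p was the highest of that group, at 16.5 against 6.35 to 7.36.

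Strand use differed between the hairpins. Among reads of both strands, the 5p share was high for miR-193a and low for miR-193b, although their 3p strands are near copies. In control GM the miR-193a 5p share was 100%, 90.8%, 91.8% and 87.3% in line 1 replicates 1 and 2 and line 2 replicates 1 and 2, and in control DM3 it was 25%, 54.5%, 85.7% and 75.8%. In tKO GM it was 83.0%, 94.1%, 92.1% and 93.4%, and in tKO DM3 75.0%, 82.7%, 62.0% and 83.6%. The control groups did not overlap, but by a margin that rests on few reads: the highest DM3 share, 85.7%, came from 14 reads of line 2 replicate 1 (12 and 2, Wilson 95% interval 60.1% to 96.0%). The lowest, 25%, came from 12 reads, and the 75% in tKO DM3 from 3 and 1 reads. The miR-193b 5p share was between 0% and 10% in all 16 libraries.

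The 5p share of miR-365, with both 5p strands summed, was 11.7%, 9.51%, 9.78% and 9.98% in control GM and 2.77%, 4.39%, 4.57% and 4.68% in control DM3. It was 11.5%, 14.9%, 9.25% and 9.40% in tKO GM and 4.64%, 8.36%, 4.53% and 6.11% in tKO DM3. All 8 DM3 values lay below all 8 GM values. Reads of miR-365-3p cannot be assigned to 1 of the 2 hairpins. For miR-365, a change in strand use and a change in the mix of the 2 hairpins therefore cannot be told apart. The strand ratio was tested by limma on log2 of (5p + 0.5) over (3p + 0.5) reads in 331 hairpin names. In control it fell by 1.42 on the log2 scale for miR-365 (SE 0.36, adjusted p 0.0142 by limma) and by 3.19 for miR-193a (SE 0.83, adjusted p 0.0167 by limma), so 2 of 3 hairpin names were called, against 14.5% of all. Their 5p reads are mostly those of miR-365-2-5p and miR-193a-5p, so these calls are not independent of the falls in level above. In tKO neither miR-365 nor miR-193a passed, at -1.005 (SE 0.36, adjusted p 0.0942 by limma) and -1.74 (SE 0.83, adjusted p 0.208 by limma), where 7.85% of all were called. The tKO value of miR-365 was called at a minimum of 100 reads (adjusted p 0.0284), with reads without a mismatch (0.0475) and without tKO DM3 line 1 replicate 2 (0.0496). In these settings 16.2%, 10.1% and 12.3% of all hairpin names were called, in the same order. The miR-193a call in control was lost without control GM line 1 replicate 1 (log2 ratio -2.47, adjusted p 0.0510), which had 32 reads of the 5p strand and no read of the 3p strand. It was also lost without the 2 libraries rich in short reads (-3.04, adjusted p 0.0537), where miR-365 stood at -1.46 (adjusted p 0.0322). In tKO the values without them were -0.92 for miR-365 and -1.61 for miR-193a, and the share of all hairpin names called in tKO was 1.16% (4 of 346). For miR-193b the log2 ratio was -0.63 (SE 0.64) in control and -0.28 (SE 0.64) in tKO, and neither was called; without the short-read libraries it was -0.11 and -0.27. Between tKO and control, 0 of 3 were called in GM (0.604% of all) and in DM3 (0.302% of all), and none had an unadjusted p under 0.05.

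**Figure D3:**
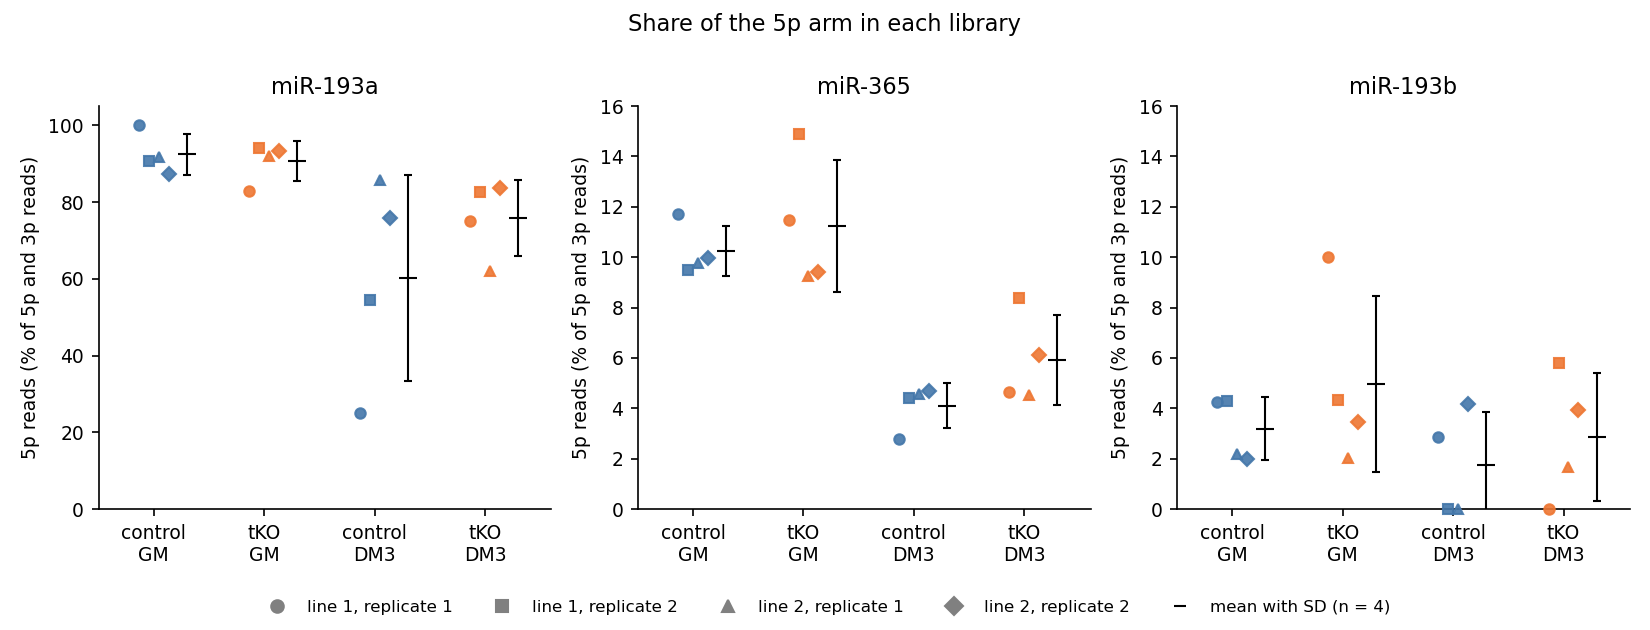
Share of 5p reads among 5p and 3p reads of miR-193a, miR-365 and miR-193b in each library, with mean and SD per group (n = 4); the vertical scales differ. The miR-365 values lie between 9.25% and 14.9% in GM and between 2.77% and 8.36% in DM3.

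Reads of miR-365-2-5p began at 2 neighbouring bases of the hairpin, and the earlier base was used more often after differentiation. An earlier start moves the seed by 1 base, so these forms are shown with bases 2 to 8 in capitals.
miR-365-2-5p, mature start: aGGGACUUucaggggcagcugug
miR-365-2-5p, start 1 base earlier: gAGGGACUuucaggggcagcugu

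Over all libraries 2108 reads had the mature start and 1617 the earlier start. This measure was chosen after its values were seen. Among reads that matched the hairpin within 3 bases of the mature start, the earlier start made up 35.4%, 42.4%, 39.6% and 32.0% in control GM and 77.8%, 74.2%, 66.7% and 61.4% in control DM3. In tKO it made up 49.2%, 36.4%, 49.7% and 40.2% in GM and 66.7%, 61.1%, 67.5% and 65.9% in DM3. All DM3 libraries were above all GM libraries in both genotypes. The smallest DM3 libraries rest on few reads, with 9 and 6 such reads in line 1 replicate 1 of control and tKO. Across 222 names, limma on log2 of (other starts + 0.5) over (mature start + 0.5) reads gave a rise of 1.88 in control (SE 0.25, adjusted p 0.000217 by limma) and of 1.27 in tKO (SE 0.25, adjusted p 0.00572 by limma). It was the member called among 4 tested in each genotype, where 9.01% of names were called in control and 9.46% in tKO. Of the names called, 15 of 20 in control and 19 of 21 in tKO also moved toward other starts. The median log2 change of all names was 0.29 and 0.36. Both calls of miR-365-2-5p held under all 21 alternatives run, with log2 values from 1.44 to 2.00 in control and from 1.07 to 1.40 in tKO. Without the 2 libraries rich in short reads the values were 1.79 and 1.32. No member was called between tKO and control in GM or DM3, where 0.45% of names were called in each.

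Both forms had lower mean levels in DM3, given without a test of each form. The mature-start form went from 83.3 ± 18.2 TMM-scaled CPM in control GM to 8.82 ± 2.95 in control DM3 (SD, n = 4). The earlier form went from 49.7 ± 5.56 to 20.6 ± 1.72. In tKO the mature-start form went from 88.4 ± 43.6 to 15.4 ± 1.57 and the earlier form from 66.7 ± 14.9 to 30.9 ± 3.39. The mature-start form had 2 reads in line 1 replicate 1 of each DM3 group, under the 3 counts taken as detectable, so no fold is given. The start was nearly fixed in 4 members, with 100% of miR-193a-3p reads, 98.7% of miR-365-3p reads, 97.7% of miR-193b-3p reads and 99.7% of miR-193a-5p reads that matched their hairpin near the mature start beginning exactly there. The start of the rare miR-193b-5p varied, with 65.75% of such reads at the mature start and forms that begin 1 base earlier among its 5 leading sequences. The bases just before the mature strand are the same in the hairpins of miR-365-1-5p and miR-365-2-5p, yet 93.7% of miR-365-1-5p reads began at the mature start, against 55.8% for miR-365-2-5p. In control GM these shares were 86.4% to 100% for miR-365-1-5p and 56.7% to 66.0% for miR-365-2-5p. In control DM3 the miR-365-1-5p share ran from 0% to 100% over libraries with 30 such reads in all, 90% of them at the mature start.

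**Figure D4:**
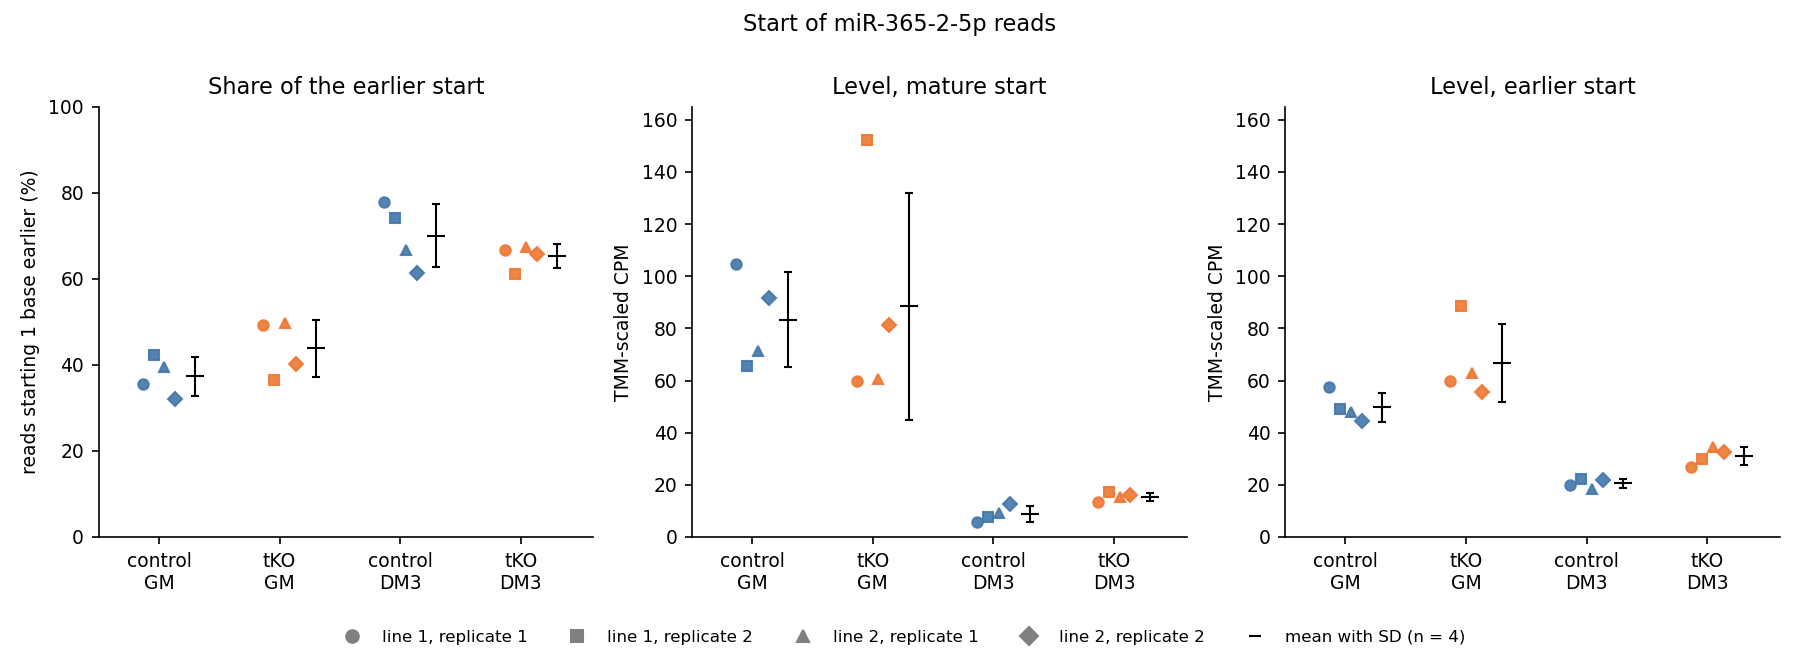
Share of miR-365-2-5p reads that start 1 base before the mature start (left, in percent), and the level of the mature-start form (middle) and of the earlier form (right) in TMM-scaled CPM, per library with mean and SD (n = 4). The share is 32.0% to 49.7% in GM and 61.1% to 77.8% in DM3.

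The 3′ end of miR-365-3p had several forms. The 22-nt mature form made up 42.8% of its reads and a 23-nt form, with the next base of both hairpins, 30.7%.
miR-365-3p, 22 nt: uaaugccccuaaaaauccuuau
miR-365-3p, 23 nt: uaaugccccuaaaaauccuuauu

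The share of the 23-nt form was 31.3%, 36%, 33.0% and 37.9% in control GM and 22.5%, 27.5%, 29.9% and 24.7% in control DM3. In tKO it was 29.4%, 40.9%, 32.1% and 36.3% in GM and 18.3%, 22.8%, 18.2% and 24.3% in DM3. GM and DM3 did not overlap in either genotype. Limma on log2 of reads longer than the mature end over all others, also a measure chosen after values were seen, gave -0.97 in tKO (SE 0.21, adjusted p 0.0166 by limma) and -0.53 in control (SE 0.21, adjusted p 0.146 by limma). Without tKO GM line 1 replicate 2 the tKO value was -0.84 (adjusted p 0.0549), and without the 2 libraries rich in short reads -0.89 (adjusted p 0.0354), with -0.57 in control. In control the member called was miR-365-2-5p, whose ratio of longer reads to all others rose by 1.81 on the log2 scale while its level fell (SE 0.51, adjusted p 0.0477 by limma), a call that was lost under 14 of 21 alternatives and was 1.81 (adjusted p 0.0395) without the short-read libraries. In tKO this ratio of miR-365-2-5p was not called, at 0.65 (SE 0.51, adjusted p 0.588 by limma), or 0.13 without the short-read libraries. Of the 5 members and 227 names tested, 7.05% of names were called in control and 7.05% in tKO. Of these calls, 13 of 16 in control and 16 of 16 in tKO were lower in DM3. Between tKO and control 0% of names were called in GM and 0% in DM3 by limma; at an unadjusted p under 0.05 there were 8 and 19 names, with miR-365-1-5p in GM (p 0.0119) among them.

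Added bases that the genome does not encode, called tails, were found on 16.9% to 21.9% of miR-365-3p reads in 15 libraries and on 12.5% in tKO DM3 line 1 replicate 1, from 144 reads. In summed reads, a C made up 48.3% to 51.8% of the tails in the 4 groups and an A 15.3% to 18.2%. Tails were found on 49.15% of reads whose hairpin-matching part was 20 nt, on 64.3% at 21 nt, on 14.4% at 22 nt and on 2.40% at 23 nt. An added base that equals the next hairpin base is read as part of the hairpin: A made up 0% of tails at 20 nt, U 0% at 21 and 22 nt and G 0% at 23 nt. The shares and bases of tails therefore cannot be compared between lengths. The tailed to untailed ratio, tested by limma in 183 names of which miR-365-3p was the member with enough reads, moved by -0.14 (SE 0.15, adjusted p 0.446 by limma) in control and -0.15 (SE 0.15, adjusted p 0.532 by limma) in tKO with differentiation. There 42.6% of names were called in control, 71 of 78 of them lower in DM3, and 14.8% in tKO. Without the 2 libraries rich in short reads the values were -0.14 in control and 0.0361 in tKO. Between tKO and control the log2 differences of miR-365-3p were -0.11 in GM and -0.13 in DM3 (SE 0.15 in each), and 0% of names were called in GM and 0% in DM3, with 10 and 15 at an unadjusted p under 0.05. Of the miR-365-2-5p reads summed over each group, 23.97% were tailed in control GM and 41.0% in control DM3, and 25.3% and 35.4% in tKO, given without a test because its DM3 libraries held too few reads. Per library the tailed share was 21.4% to 27.4% in control GM and 27.8% to 47.1% in control DM3. In tKO it was 22.9% to 33.6% in GM and 16.7% to 37.9% in DM3, which overlap.

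**Figure D5:**
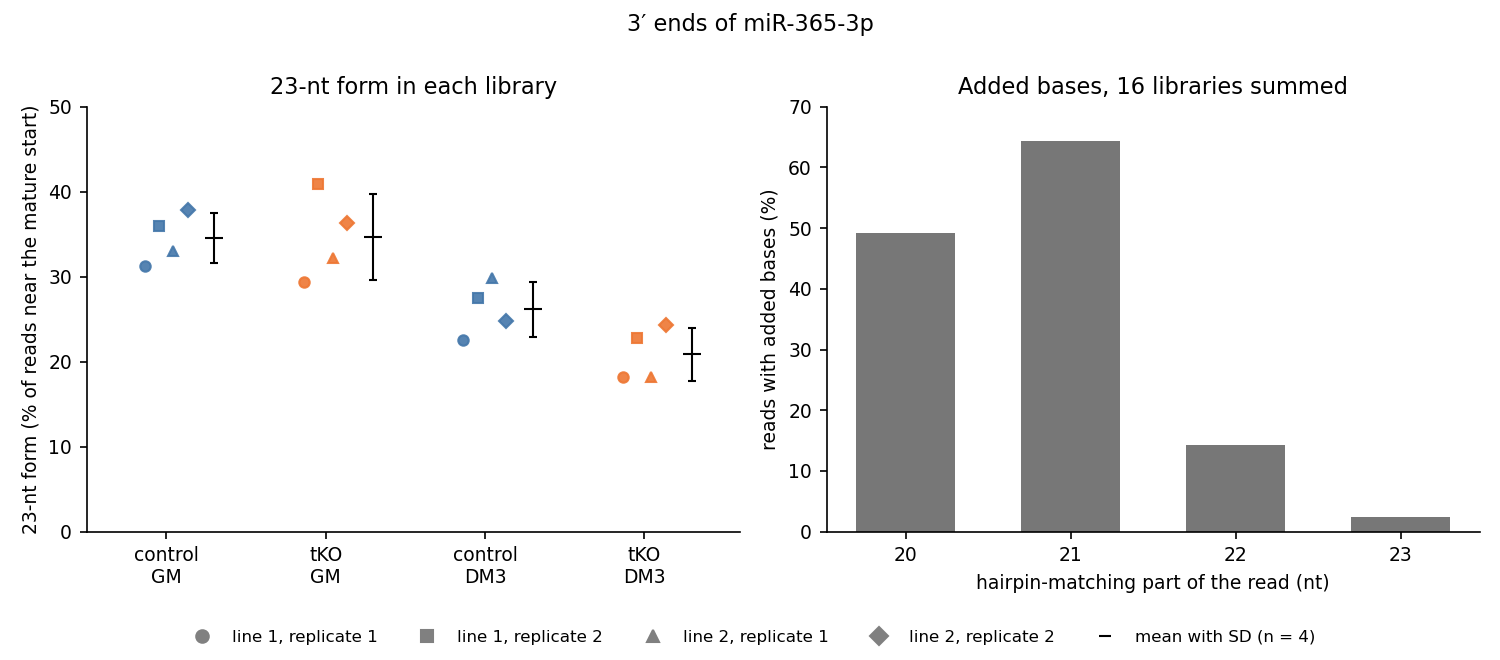
Left, share of the 23-nt form of miR-365-3p among reads near its mature start in each library, with mean and SD (n = 4). Right, percent of miR-365-3p reads with added bases by the length of the hairpin-matching part, in reads summed over 16 libraries, from 2.40% at 23 nt to 64.3% at 21 nt. An added base equal to the next hairpin base is not counted, so the bars do not compare tailing between lengths.

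Correlations of member levels over the 16 libraries are a description, since the libraries share lines, media and depth. The Pearson r of log2 levels was 0.92 between the chromosome 11 strands miR-193a-5p and miR-365-2-5p, 0.77 between miR-365-2-5p and miR-365-3p, 0.61 between miR-193a-5p and miR-365-3p, 0.40 between miR-193b-3p and miR-365-3p, 0.62 between miR-193a-5p and the chromosome 16 strand miR-365-1-5p, and -0.22 between the seed partners miR-193a-3p and miR-193b-3p. Within chromosome 11, miR-193a-3p had an r of -0.33 with miR-193a-5p of its own hairpin and of -0.41 with miR-365-2-5p. Among 550 names with a mean of at least 10 TMM-scaled CPM, those most like miR-365-3p were miR-145a-5p (r 0.90), miR-361-5p (0.86) and miR-125b-5p (0.84). The highest r with miR-193b-3p were those of miR-21b-5p (0.72), miR-326-3p (0.71) and miR-6391-5p (0.69), and with miR-193a-3p those of miR-3068-5p (0.60), miR-671-5p (0.59) and miR-101a-3p (0.58).

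Other microRNAs known from brown and beige fat were called in both directions. Of 20 listed, 19 were tested by edgeR. In control 7 of 19 were called with differentiation, against 27.6% of all names: 3 rose, miR-133a-3p, miR-133b-3p and miR-378a-3p, and 4 fell, miR-106b-5p, miR-125b-5p, miR-155-5p and miR-196a-5p. The median log2 change of the list was -0.35, against 0.02 for all names. In tKO 5 of 19 were called, against 19.7% of all names: miR-27b-3p and the same 3 rose, miR-125b-5p fell, and the median was 0.10 against 0.01. The miR-133 strands, which are better known as muscle microRNAs, changed most, with log2 values of 6.99 and 6.66 in control, while the others called lay between -1.66 and 1.38. Between tKO and control 0 of 19 were called in GM and 0 of 19 in DM3, against 1.12% and 0.867% of all names. Of 12 muscle microRNAs, 11 were tested, 5 rose with differentiation in control and 4 in tKO, where 128 and 92 of all 807 names rose, and those lower in tKO were the deleted miR-206-3p in GM and the deleted miR-206-3p and miR-1a-3p in DM3. The strands miR-133a-3p, miR-133b-3p, miR-378a-3p and miR-27b-3p are on both lists. Every rise called on the fat list is therefore also counted on the muscle list.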

How the data were processed

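The deposited tables list, for each of 16 small RNA libraries, every read sequence assigned to a mouse miRNA name, with its length, mismatch note and expected count. A sequence that fits several names is split among them, so the estimated counts need not be whole, and they are not normalized. The submitters' processing notes name cutadapt 1.15, STAR 2.5.4 and mm10 without their roles. How the reads were assigned and with which version is not given in the sources used here.

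Names were read without the parenthesised note, and 236 of 2510 listed names were merged with a name of the same arm, which left 2274. Counts were rounded for edgeR 4.0.16 (R 4.3.3), with filterByExpr at a minimum count of 10, which kept 807 names, TMM scaling, 1 fit over the 16 libraries and a robust quasi-likelihood test per comparison. Strand, tail, start and end ratios were tested with limma 3.58.1 on log2 of reads plus 0.5. The strand, start and end tests took names with a mean of at least 20 reads and a read of each kind in at least 8 libraries, and the tail test took names with at least 20 reads in each of the 16 libraries. Shares were compared with exact two-sided permutation tests. Start and end measures were added after the data were seen. P-values were adjusted by Benjamini-Hochberg over all names tested, with a threshold of 0.05. The scripts were tested on simulated data. DESeq2 1.42.0 was an alternative. The members, the lists and the tests were chosen with earlier results of these data known. The members named are those given by the rule, and the likest names are the 3 with the highest Pearson r.

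Replicate numbers pair no animals or donors. Same-numbered libraries had a mean r of 0.10 in their deviations from the group means over 551 names, with a lowest r of -0.46, so the numbers were not taken as pairs. The mean r was -0.095 between different numbers, 0.15 within a line and -0.14 with the other line of the genotype. The main fit blocked neither line nor replicate number, and both blocks were run as alternatives. In every line and medium, replicate 1 had fewer reads than replicate 2. Libraries of a line come from the same cells, and p-values measure only the spread between libraries of 2 lines per genotype. Floors of 3 counts cover counting error only.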

Additional observations from a re-analysis of the deposited data

Results flagged for a closer look

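Of 76 groups of 4 libraries tested for a value far from the others, 6 had one, where chance gives about 1 in 20. The level of miR-193a-3p in tKO GM was 16.5 TMM-scaled CPM in line 1 replicate 1, against 6.35 to 7.36 in the other 3. In tKO DM3 it was 24.3 in line 2 replicate 1, against 6.68 to 8.97, where the 6.68 came from 1 read. The level of miR-193a-5p in tKO DM3 was lowest in line 1 replicate 1, at 20.1 from 3 reads, against 39.4 to 42.9. The level of miR-365-2-5p in tKO GM was 259 in line 1 replicate 2, against 137 to 152. The 5p share of miR-365 in control DM3 was lowest in line 1 replicate 1, at 2.77% against 4.39% to 4.68%. The share of miR-193b-3p among the miR-193 3p strands in tKO GM was 52.9% in line 1 replicate 1, against 89.8% to 91.5%. Which causes lie behind these values was not tested.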

How the results depend on the processing

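The falls of miR-365-2-5p and miR-193a-5p in control held under all 33 alternatives run, with log2 values from -2.21 to -1.62 and from -2.22 to -1.40. In tKO, miR-365-2-5p lost its call with replicate number 1 alone (adjusted p 0.0966), and miR-193a-5p under 7 of 33. Their tKO log2 values over all 33 ran from -1.84 to -1.43 and from -1.39 to -1.10. The 2 member calls for DM3 against GM in tKO became 1 with no filter, with only the groups compared, with replicates of a line summed and with replicate number 2 alone, 0 with replicate number 1 alone, and 1 to 2 with a library left out. The share of all names called moved as well, from 19.7% to 5.45% with no filter, 11.9% with only the groups compared, 10.1% with lines summed, 6.33% with replicate number 2 and 22.2% with number 1. It was 12.25% to 18.2% with a library left out. With a replicate block, miR-365-2-5p stood at -2.003 in control and -1.68 in tKO, and the block changed no member call. For strand balance in control, the 2 calls became 1 without the 2 libraries rich in short reads and 1 to 2 with a library left out. Of all hairpin names, 11.3% and 9.85% to 16.9% were called there, against 14.5% as reported. In tKO, 0 became 1 at a minimum of 100 reads and with reads without a mismatch, and 0 to 1 with a library left out. There the share of all hairpin names called moved from 7.85% to 16.2% at 100 reads and 10.1% without a mismatch. It was 3.24% to 12.3% with a library left out. Start calls in control were 1 to 2 with a library left out. Over all names, start calls in control ranged from 13 to 27 over the 21 alternatives run, against 20 as reported. The end call in control became 0 at a pseudocount of 5, where miR-365-2-5p stood at 2.23 (adjusted p 0.0529 by limma). There 4.85% of all names were called, against 7.05% as reported. End calls were 0 to 1 with a library left out in either genotype. The share of all names was then 1.36% to 8.30% in control and 0.881% to 10.04% in tKO.

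Signs turned only for values that were not called. The log2 change of miR-193b-3p in control became 0.19 by total reads, 0.0499 with replicate number 1, 0.0805 with reads without a mismatch and 0.20 with sequences of 18 to 25 nt. In tKO it became -0.0557 with no filter, -0.37 with lines summed and -0.57 with replicate number 2, and ran from -0.21 to 0.31 with a library left out, as miR-193a-3p did from -0.14 to 0.77 and miR-365-1-5p from -0.48 to 0.0111. The highest tKO value of miR-193b-3p over its 33 alternatives was 0.99, against 0.10 as reported. Between tKO and control, miR-365-3p became -0.11 in GM with replicate number 1 (-0.0117 to 0.16 with a library left out). In DM3 it became -0.0359 by total reads, -0.20 with lines summed, -0.18 with replicate number 2 and -0.05 at 18 to 25 nt (-0.15 to 0.18). For miR-365-2-5p in GM it was -0.12 with replicate number 1 (-0.0194 to 0.35), and for miR-193b-3p in DM3 0.0685 (-0.30 to 0.11). The strand ratio of miR-193b became 0.70 in control and 0.27 in tKO at a pseudocount of 5 (-0.60 to 0.20 in tKO with a library left out). The tail ratio of miR-365-3p in tKO became 0.0361 without the short-read libraries (-0.24 to 0.0361). In percentage points, from summed reads, the miR-193b-3p share in tKO moved by -5.48 with differentiation (-6.34 to 6.52 with a library left out), the miR-365-1-5p share between genotypes in DM3 by -0.275 (-1.45 to 3.40), and the miR-365-3p share in control by 0.142. The miR-193b-3p share between genotypes in DM3 ran from -0.934 to 5.26 with a library left out. The causes were not tested.

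Over all names, calls ranged from 85 to 274 (223 as reported) and 74 to 210 (159) with differentiation in control and tKO, and from 2 to 20 (9) and 1 to 74 (7) between genotypes in GM and DM3. Strand calls ranged from 25 to 56 (48) and 4 to 38 (26), and end calls from 3 to 19 (16) and 2 to 23 (16). Depth limits miR-193a-3p, miR-193b-5p and miR-365-1-5p most.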
